A study of Mus musculus with 43 samples.

Results

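The insulin-like growth factor (IGF) genes examined here were 10 genes chosen by name among the 55416 genes of the count data: the ligands Igf1 and Igf2, the receptors Igf1r, Igf2r and Insr, and the secreted binding proteins Igfbp2, Igfbp3, Igfbp4, Igfbp5 and Igfbp7. Their counts were read in 43 libraries of oligodendrocytes, oligodendrocyte precursor cells (OPCs), astrocytes and microglia, which were immunopanned from the cerebral cortex of 3-month-old Rag2-/- mice and littermate controls. Rag2-/- mice lack the recombinase subunit needed to make T and B cells. Controls of pairs 1, 2, 3 and 5 were Rag2+/- and those of pairs 4 and 6 were Rag2+/+, so most control mice carried 1 copy of the deletion. Pairs 1, 3 and 4 were male, pairs 2 and 5 were female, and pair 6 had a male control and a female Rag2-/- mouse. There were 4 control and 4 Rag2-/- oligodendrocyte libraries (pairs 1, 3, 5 and 6), 6 control and 5 Rag2-/- OPC libraries, and 6 of each genotype for astrocytes and microglia. All cell types of a mouse came from a single suspension. Microglia were bound with an antibody to CD45, which other macrophages of the brain also carry.

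IGF1 and IGF2 are secreted growth factors that signal through the receptor tyrosine kinase encoded by Igf1r and, for IGF2, also through the insulin receptor encoded by Insr. The receptor encoded by Igf2r binds IGF2 and carries it to lysosomes for breakdown. Binding proteins hold the ligands outside the cell and change how long and where they act, and IGFBP7 binds them more weakly than the other members do. In the brain, IGF1 is known for promoting the survival of oligodendrocyte lineage cells and myelination.

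Libraries held 6499417 to 23118497 read pairs counted on genes, with a median of 10447042. The share of mitochondrially encoded genes ran from 6.75% to 11.7% in microglia and from 45.8% to 60.1% in oligodendrocytes, with OPCs and astrocytes between. Each cell type had all 8 of its own marker genes at their highest mean levels. Rag2 itself was too low to check the labels, with 6 counts over 3 of 22 controls and 0 over the 21 libraries of Rag2-/- mice. Levels below are CPM, counts scaled to a common library size, normalized by trimmed mean of M-values factors over all libraries, written as mean ± SD over libraries. Differences are on the log2 scale with their standard error (SE), from the quasi-likelihood test of edgeR with p-values adjusted by the Benjamini-Hochberg method over all genes tested, and a gene was called at an adjusted p under 0.05. Such libraries cannot tell fewer expressing cells from less RNA per cell.

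Igfbp2 and Igfbp5 lie tail to tail on chromosome 1 of GRCm39, at 72863606 to 72891634 on the forward strand and 72897091 to 72914043 on the reverse strand, with 5456 bases between them, and both had their highest level in astrocytes. The 250 bases before their annotated starts are shown because these neighbours shared their highest cell type, although their order below it differed. They were read 5′ to 3′ on the strand of each gene, from the genome given with GENCODE M39 (GRCm39), with GGGCGG in capitals.
Igfbp2, chr1:72863356-72863605: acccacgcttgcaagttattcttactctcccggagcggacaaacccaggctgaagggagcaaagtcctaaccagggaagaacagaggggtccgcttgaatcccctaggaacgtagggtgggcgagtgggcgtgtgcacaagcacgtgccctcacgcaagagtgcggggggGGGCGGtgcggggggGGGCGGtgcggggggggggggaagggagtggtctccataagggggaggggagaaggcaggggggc
Igfbp5, chr1:72914044-72914293: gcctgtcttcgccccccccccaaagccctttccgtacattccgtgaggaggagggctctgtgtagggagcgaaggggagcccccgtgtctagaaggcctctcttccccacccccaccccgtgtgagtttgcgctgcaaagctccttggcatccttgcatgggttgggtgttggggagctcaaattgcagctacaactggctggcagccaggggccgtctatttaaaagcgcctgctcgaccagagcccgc
Motifs were searched on both strands. GGGCGG stood 2 times before Igfbp2 and 0 times before Igfbp5, and 29.9% of the windows of the same length before 21770 protein-coding genes held it. TATAAA was in neither window and in 12.5% of all windows. CCAAT was in neither window and in 36.1% of all windows. CG dinucleotides numbered 14 before Igfbp2 and 11 before Igfbp5, against a median of 6 over all windows, 2 before Igf1 and 37 before Igf1r.

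In the same annotation Igf1 (ENSMUSG00000020053) spans 87693642 to 87772904 of chromosome 10, Igf2 (ENSMUSG00000048583) spans 142204503 to 142220694 of chromosome 7, and Igf1r (ENSMUSG00000005533) spans 67601518 to 67883416 of chromosome 7. Igf2r (ENSMUSG00000023830) spans 12901293 to 12988614 of chromosome 17 and Insr (ENSMUSG00000005534) spans 3172061 to 3329647 of chromosome 8. Igfbp3 (ENSMUSG00000020427) and Igfbp4 (ENSMUSG00000017493) span 7156086 to 7164179 and 98932064 to 98945218 of chromosome 11, and Igfbp7 (ENSMUSG00000036256) spans 77493130 to 77555931 of chromosome 5. Igfbp2 is ENSMUSG00000039323 and Igfbp5 is ENSMUSG00000026185. Values below are counts over all exons of a gene.

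Igf1 was highest in microglia. Its level was 20.1 ± 6.98 CPM there (n = 12), 5.72 ± 3.39 in oligodendrocytes (n = 8), 2.51 ± 1.79 in OPCs (n = 11) and 0.743 ± 0.611 in astrocytes (n = 12). Microglia libraries ranged from 6.36 to 30.0 CPM, and the lowest of them lay under the highest oligodendrocyte and OPC libraries at 11.5 and 6.55 CPM. All neighbours in this order were called. Microglia exceeded oligodendrocytes by 1.92 (SE 0.46, adjusted p = 0.000326, and 1.31 with adjusted p = 0.0641 in control libraries alone), oligodendrocytes exceeded OPCs by 1.10 (SE 0.44, adjusted p = 0.0435) and OPCs exceeded astrocytes by 1.77 (SE 0.44, adjusted p = 0.00108). The step between oligodendrocytes and OPCs was the least secure, since its adjusted p was 0.0601 with the mouse as a replicate block and it was lost in 7 of the 12 fits that left out 1 mouse (pair 2, 4 or 6 of either genotype or the Rag2-/- mouse of pair 3), down to 0.66. Over all alternatives its adjusted p ranged from 0.0111 to 0.26.

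The Igf1 level of the other cell types was set against how much microglial RNA their libraries held. The 8 microglia markers had 5.52% to 10.7% of their microglia level in oligodendrocyte libraries, 3.75% to 5.39% in OPC libraries and 1.07% to 2.62% in astrocyte libraries. Igf1 had 28.5%, 12.5% and 3.70% of its microglia level in the same libraries, above the range of the markers in all 3 cell types. The border macrophage list, 8 genes of macrophages at brain borders such as Mrc1 and Cd163, had 13.1% of its microglia level in oligodendrocyte libraries, 4.44% in OPC libraries and 1.46% in astrocyte libraries. The part of such cells in these Igf1 levels was not tested.

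Among microglia libraries, Igf1 also moved with the border macrophage list. Control libraries had 22.4, 16.9, 6.36, 21.3, 23.5 and 25.5 CPM of Igf1 in pairs 1 to 6, and Rag2-/- libraries had 13.7, 18.4, 11.7, 30.0, 22.5 and 28.6 CPM. The control library of pair 3 was the lowest of all 12 and also had the smallest summed level of the list, 364 CPM against 884 CPM in the highest library. Its littermate, the Rag2-/- library of pair 3, was the next lowest for Igf1 (11.7 CPM) and for the list (428 CPM). Over the 12 libraries, Pearson's r was 0.901 (permutation test, adjusted p = 0.0012 over the 8 members tested). Spearman's rho was 0.846 (permutation test, adjusted p = 0.00768). The test shuffled all 12 libraries without regard to genotype, sex or littermate pair, so it takes the libraries of a pair as independent. Without the 2 libraries farthest from the median of the list, r was 0.699. Igf2r ran the other way, with r = -0.751 (adjusted p = 0.0178, permutation test), rho = -0.587 (adjusted p = 0.195, permutation test) and r = -0.32 without such libraries, so this relation rested on them. The list was set against the members after the data had been seen.

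**Figure D1:**
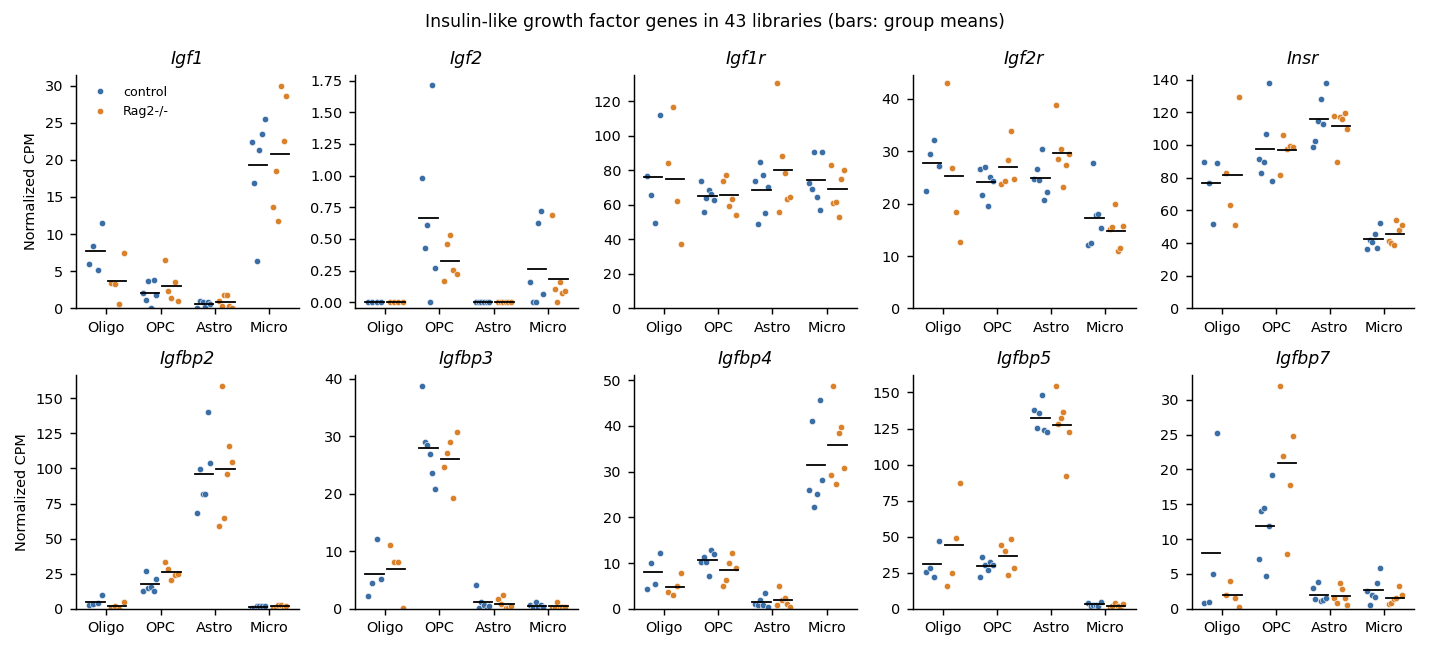
Normalized CPM (linear vertical axis, own scale for each gene) of the 10 genes in every library, by cell type (Oligo, oligodendrocyte; Astro, astrocyte; Micro, microglia) and genotype, where each point is a library and each bar the mean of a group. Igf1 and Igfbp4 were highest in microglia, Igfbp2 and Igfbp5 in astrocytes, Igfbp3 and Igfbp7 in OPCs, and Igf1r had mean levels of 65.3 to 75.5 CPM in all 4 cell types.

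Igf2 was barely detected. It had 0 counts in all 8 oligodendrocyte and all 12 astrocyte libraries. OPC libraries had 0 to 24 counts and microglia libraries had 0 to 8 counts. Filtering by minimum count removed Igf2 before each main edgeR fit. DESeq2, which kept it, called it between OPCs or microglia on one side and oligodendrocytes or astrocytes on the other. A floor was set at the level that 3 counts per library would give, 0.423 CPM in oligodendrocytes and 0.337 CPM in astrocytes. The OPC mean of 0.513 CPM (SD 0.477, median 0.428) was 1.21-fold and 1.52-fold these floors. Single OPC libraries ran from 0 to 1.71 CPM, on both sides of the floors, so these folds hold for the mean only. The microglia mean, at 0.223 CPM, lay under both floors, so no fold is given. Of the exonic bases of Igf2, 65.5% overlapped other counted genes. These were Gm49394 on the same strand, and Gm33148 and the antisense gene Igf2os on the opposite strand. Gm49394 had 0 counts in every library. Neither the strand setting nor the handling of reads in shared bases is stated, so the counts of Igf2, its 0 counts included, are uncertain. H19, the imprinted neighbour of Igf2, had 0 counts in all 12 microglia libraries and at most 32 counts in an OPC library.

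The receptors were measured well above the filter in every cell type. Igf1r was even. Its level was 75.5 ± 28.1 CPM in oligodendrocytes, 74.4 ± 21.5 in astrocytes, 71.5 ± 12.7 in microglia and 65.3 ± 7.49 in OPCs, and none of the 6 differences between cell types was called (largest difference 0.17, SE 0.13, between astrocytes and OPCs, adjusted p = 0.313). Insr was highest in astrocytes at 114 ± 12.8 CPM, followed by OPCs at 97.2 ± 16.6 and oligodendrocytes at 79.1 ± 25.4, with the lowest level in microglia at 43.9 ± 6.06. Astrocytes did not differ from OPCs beyond the spread (0.23, SE 0.12, adjusted p = 0.126), nor OPCs from oligodendrocytes (0.30, SE 0.13, adjusted p = 0.0736), whereas oligodendrocytes exceeded microglia by 0.85 (SE 0.13, adjusted p = 2.83e-07). Astrocytes also exceeded oligodendrocytes, by 0.52 (SE 0.13, adjusted p = 0.00109). Igf2r stood at 27.3 ± 4.86 CPM in astrocytes, 26.5 ± 9.15 in oligodendrocytes and 25.4 ± 3.71 in OPCs, which did not differ beyond their spread, and at 16.02 ± 4.64 in microglia, lower than in OPCs by 0.66 (SE 0.15, adjusted p = 0.00013). In control libraries alone that difference was 0.41 and was no longer called (adjusted p = 0.0731).

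Per kilobase of exon, the receptor transcripts had the same order in 3 of 4 cell types. The length used was that of all annotated exons of a gene, not of the transcripts expressed, which limits comparison between genes. As CPM, Insr (79.1) and Igf1r (75.5) were nearly equal in oligodendrocytes, so the lead of Insr there rested mostly on exonic length. Insr made up the largest share of the 3 receptors in oligodendrocytes (46.3% ± 12.3), OPCs (53.8% ± 4.20) and astrocytes (55.6% ± 4.95), with Igf1r at 30.6%, 25.4% and 24.9% and Igf2r at 23.1%, 20.8% and 19.6%. In microglia Igf1r led with 42.3% ± 4.22, ahead of Insr with 37.7% ± 5.25. Summed over the 3 receptors, astrocytes held 14.9 ± 1.92 CPM per kilobase and microglia 8.52 ± 1.00. The order of cell types rests on the normalization for these genes. As CPM of all gene counts, in which mitochondrially encoded genes weigh most in oligodendrocyte libraries, Igf1r was 46.9 in oligodendrocytes against 70.6 to 83.1 in the others, and Insr was 123 in OPCs and 110 in astrocytes.

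Among the binding proteins, Igfbp2 and Igfbp5 were highest in astrocytes, Igfbp3 and Igfbp7 were highest in OPCs, and Igfbp4 was highest in microglia. Igfbp2 had 97.9 ± 30.1 CPM in astrocytes, 21.3 ± 6.86 in OPCs, 3.25 ± 2.96 in oligodendrocytes and 1.58 ± 0.718 in microglia. The lowest astrocyte library, at 58.7 CPM, lay above the highest OPC library at 33.2 CPM, and the lowest OPC library at 12.6 CPM lay above all oligodendrocyte libraries. Astrocytes exceeded OPCs by 2.16 (SE 0.26, adjusted p = 3.54e-09) and OPCs exceeded oligodendrocytes by 2.91 (SE 0.33, adjusted p = 1.28e-09). Oligodendrocytes exceeded microglia by 0.81 (SE 0.33, adjusted p = 0.0278), a call lost without either mouse of pair 2 or either mouse of pair 6 (0.26 without the Rag2-/- mouse of pair 6), with adjusted p from 0.000782 to 0.557 over all alternatives. Igfbp2 in oligodendrocyte libraries was 3.32% of its astrocyte level, under the 3.35% to 12.4% that the 8 astrocyte markers had there. In OPC libraries it was 21.8%, above the 9.52% to 17.3% of the same markers. In microglia libraries it was 1.61%, within their range of 0.481% to 3.67%. The part of astrocyte RNA in these levels was not tested.

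Igfbp5, a binding protein that also attaches to extracellular matrix, had 130 ± 15.7 CPM in astrocytes, 37.5 ± 23.2 in oligodendrocytes, 32.9 ± 8.26 in OPCs and 2.54 ± 1.32 in microglia. Every astrocyte library (91.9 to 155 CPM) lay above every other library. Astrocytes exceeded oligodendrocytes by 1.81 (SE 0.26, adjusted p = 1.27e-07), oligodendrocytes and OPCs did not differ beyond their spread (0.16, SE 0.25, adjusted p = 0.63), and OPCs exceeded microglia by 3.72 (SE 0.25, adjusted p = 7.78e-17). Its levels in oligodendrocytes (28.9% of astrocytes) and OPCs (25.3%) lay above the ranges of the 8 astrocyte markers there (3.35% to 12.4% and 9.52% to 17.3%). In microglia, at 1.95%, it lay within their range (0.481% to 3.67%). The part of astrocyte RNA in these levels was not tested. Among oligodendrocyte libraries Igfbp5 varied widely. The controls had 25.8, 28.5, 22.2 and 46.9 CPM and the Rag2-/- libraries 15.6, 25.1, 48.9 and 87.0 CPM in pairs 1, 3, 5 and 6.

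Igfbp3, which carries most IGF in blood, had 27.1 ± 5.29 CPM in OPCs, 6.47 ± 4.20 in oligodendrocytes, 1.00 ± 1.22 in astrocytes and 0.464 ± 0.368 in microglia. All 11 OPC libraries (19.2 to 38.8 CPM) lay above all libraries of the other cell types. OPCs exceeded oligodendrocytes by 2.07 (SE 0.50, adjusted p = 0.00104) and oligodendrocytes exceeded astrocytes by 2.77 (SE 0.51, adjusted p = 1.39e-05), while astrocytes and microglia did not differ beyond their spread (1.02, SE 0.52, adjusted p = 0.0762). The oligodendrocyte and astrocyte levels, at 23.9% and 3.70% of the OPC level, lay within the ranges of the 8 OPC markers in those libraries (10.1% to 78.5% and 2.23% to 20.3%). The upper ends were those of Sox10 and Olig2, which mark the whole oligodendrocyte lineage. The medians of the markers were 16.3% and 2.60%, under the shares of Igfbp3. The part of OPC RNA in these levels was not tested.

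Igfbp7 had 15.99 ± 8.23 CPM in OPCs, 4.98 ± 8.35 in oligodendrocytes, 2.17 ± 1.503 in microglia and 1.94 ± 1.12 in astrocytes. OPCs exceeded oligodendrocytes by 2.07 (SE 0.50, adjusted p = 0.000898), the lower cell types did not differ from each other beyond their spread (adjusted p = 0.125 and 0.713 for neighbours), and in control libraries alone the first difference was 0.63 (adjusted p = 0.549). The control oligodendrocyte library of pair 6 had 25.3 CPM against 0.280 to 4.93 CPM in the other 7. That library also had the largest summed level of the mural list, 8 genes of pericytes and vascular smooth muscle cells, at 169 CPM against 12.4 to 92.3 CPM in the others. Of the oligodendrocyte libraries it was also the highest for marker lists of endothelial cells (38.1 CPM), fibroblasts (23.6 CPM), astrocytes (3358 CPM) and neurons (3006 CPM). The part of RNA of any of these cell types in this level was not tested. Of the exonic bases of Igfbp7, 13.7% overlapped Polr2b on the opposite strand.

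Igfbp4, which is cut by the protease PAPP-A to release IGF, had 33.6 ± 8.74 CPM in microglia, 9.68 ± 2.58 in OPCs, 6.41 ± 3.26 in oligodendrocytes and 1.67 ± 1.35 in astrocytes. All microglia libraries (22.4 to 48.8 CPM) lay above all others. Microglia exceeded OPCs by 1.76 (SE 0.26, adjusted p = 1.56e-07), OPCs and oligodendrocytes did not differ beyond their spread (0.63, SE 0.29, adjusted p = 0.083), and oligodendrocytes exceeded astrocytes by 1.94 (SE 0.30, adjusted p = 7.64e-07). As for Igf1, its levels in oligodendrocytes (19.1% of microglia), OPCs (28.8%) and astrocytes (4.98%) lay above the ranges of the microglia markers.

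**Figure D2:**
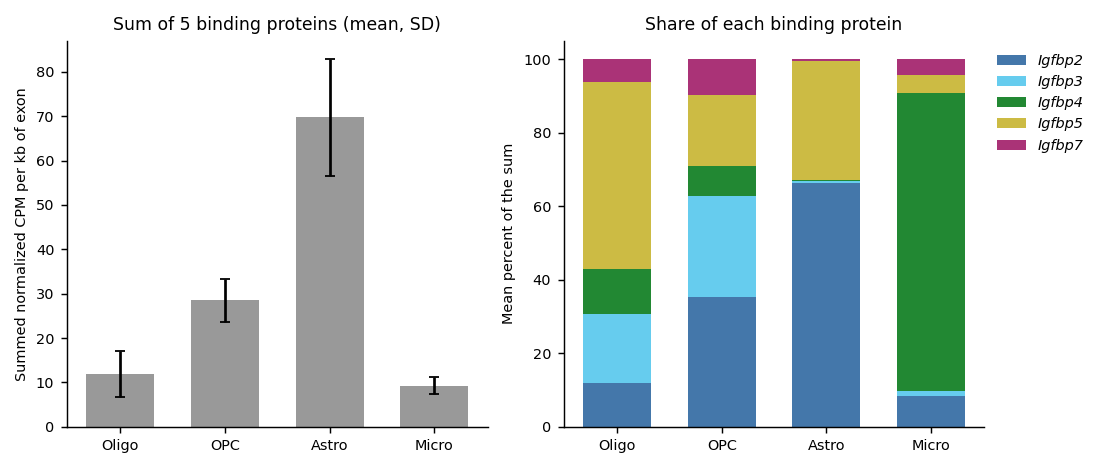
Left, summed level of the 5 binding protein genes (normalized CPM per kilobase of exon, mean and SD over the 8 to 12 libraries of a cell type); right, the mean percent of that sum that each gene held. Astrocytes had the highest sum, 69.7, made of Igfbp2 and Igfbp5, and the microglia sum of 9.30 was mostly Igfbp4.

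Per kilobase, the 5 binding proteins summed to 69.7 ± 13.1 CPM in astrocytes, 28.5 ± 4.90 in OPCs, 12.0 ± 5.20 in oligodendrocytes and 9.30 ± 1.88 in microglia. Igfbp2 was 66.2% ± 8.72 of the astrocyte sum and Igfbp5 was 32.2% ± 8.11. Igfbp4 was 81.0% ± 7.99 of the microglia sum, Igfbp5 was 50.9% ± 16.1 of the oligodendrocyte sum, and in OPCs Igfbp2 (35.3% ± 6.16) and Igfbp3 (27.6% ± 7.92) led. As CPM, Igfbp5 was above Igfbp2 in astrocytes (130 against 97.9) and in OPCs (32.9 against 21.3), so the lead of Igfbp2 there rested on exonic length.

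Of the 9 members tested in the joint fit, 4 were called between OPCs and oligodendrocytes (40.7% of all 21368 genes tested were), 6 between astrocytes and oligodendrocytes (49.7%), 7 between microglia and oligodendrocytes (68%), 6 between astrocytes and OPCs (42.6%), 8 between microglia and OPCs (69.5%) and 6 between microglia and astrocytes (70%). Between microglia and astrocytes the members' share was under the background, and in the other 5 comparisons it was above. With 9 members a single call weighs heavily in such a share, and some shares lay near the background. These counts are therefore not read as a result about the members.

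The comparison of genotypes asks whether the lack of T and B cells changed IGF genes in glia. No member was called in any cell type. Of the members that passed the filter, 0 of 9 were called in oligodendrocytes (0% of 13802 genes tested), 0 of 9 in OPCs (0.00592% of 16882), 0 of 7 in astrocytes (0.00679% of 14725) and 0 of 8 in microglia (0.00667% of 15003). DESeq2 also called 0 members in each, and its share over all genes was not counted. The shares above are those of edgeR. In the paper's own DESeq2 fit, oligodendrocytes had more genes that differed by genotype than the other cell types. The edgeR fit used here called 0 of 13802 genes in oligodendrocytes, so it did not recover that result. Before adjustment, 0, 2, 1 and 0 members had an edgeR p under 0.05, a mark that 3.38%, 4.02%, 2.87% and 2.91% of all genes tested passed. With 4 against 4 oligodendrocyte libraries the intervals were wide. The 95% interval for Igf1 there ran from -3.06 to 0.97, while in microglia it ran from -0.50 to 0.63.

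The members with the smallest p in OPCs were Igfbp2 and Igfbp7. Igfbp2 was 12.8, 27.2, 14.8, 15.4, 12.6 and 21.4 CPM in the control libraries of pairs 1 to 6 and 33.2, 28.3, 20.5, 24.2 and 24.5 CPM in the Rag2-/- libraries of pairs 1, 2, 3, 4 and 6. The Rag2-/- library was the higher in all 5 pairs, by little in pair 2, and the control libraries of pairs 2 and 6 lay within the range of the Rag2-/- libraries. The difference was 0.57 (SE 0.22, 95% interval 0.10 to 1.04, adjusted p = 1.00 in edgeR's test). Igfbp7 was 7.16, 14.01, 14.5, 4.71, 11.9 and 19.2 CPM in the controls and 32.0, 21.9, 7.89, 17.8 and 24.8 CPM in the Rag2-/- libraries, higher in 4 of 5 pairs and lower in pair 3, a difference of 0.78 (SE 0.36, 95% interval 0.03 to 1.54, adjusted p = 1.00 in edgeR's test). The groups overlapped for both genes. Without the Rag2-/- library of pair 1, the highest for both, the Igfbp7 difference was 0.45.

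Markers of other cell types moved with these values. In OPC libraries the mural list summed to 170 ± 86.6 CPM in controls (91.6 to 309) and 291 ± 132 CPM in Rag2-/- libraries (127 to 490). The endothelial list summed to 44.7 ± 19.3 CPM (23.8 to 73.4) and 76.7 ± 32.8 CPM (34.6 to 121), the astrocyte list to 2427 ± 265 CPM (2013 to 2750) and 3574 ± 1220 CPM (2182 to 5452), and the fibroblast list to 53.2 ± 14.7 and 53.4 ± 10.3 CPM. None of the 8 genes of any of these lists was at 0 in all OPC libraries, but their mean levels there were uneven. Those of the mural list ran from 0.0672 CPM (Tagln) to 70.5 CPM (Rgs5), so Tagln added almost nothing to the sum. The endothelial list ran from 2.52 CPM (Cldn5) to 20.2 CPM (Flt1), and the astrocyte list from 14.7 CPM (Aldh1l1) to 2237 CPM (Slc1a2). Over the 11 OPC libraries, Igfbp2 correlated with the mural list (r = 0.899, rho = 0.827, permutation test, adjusted p = 0.0104) and with the endothelial list (r = 0.868, rho = 0.809, permutation test, adjusted p = 0.0222). Igfbp7 correlated with the endothelial list (r = 0.895, rho = 0.836, permutation test, adjusted p = 0.0104) and with the mural list (r = 0.850, rho = 0.727, permutation test, adjusted p = 0.0218). Igfbp5 correlated with the endothelial list (r = 0.858, rho = 0.882, permutation test, adjusted p = 0.0218). Without the 2 libraries farthest from the median of the list, these r lay between 0.795 and 0.893. The test shuffled all 11 libraries, without regard to genotype, sex or littermate pair. Members and lists in these relations had higher means in Rag2-/- libraries, so r includes that difference.

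These were 5 of the 6 relations that passed an adjusted p under 0.05 among 99 relations of members with the endothelial, mural and fibroblast lists over the 4 cell types, and with Spearman's rho 0 of the 99 passed. The sixth was Insr with the mural list in microglia libraries (r = 0.798, rho = 0.713, permutation test, adjusted p = 0.0313, r = 0.856 without 2 libraries). With the astrocyte list, set against the 9 members of OPC libraries after the data had been seen, Igfbp2 had r = 0.804 and rho = 0.882 (permutation test, adjusted p = 0.0149, and 0.00729 for rho), with r = 0.690 without 2 libraries, and Igfbp5 had r = 0.737 and rho = 0.609 (permutation test, adjusted p = 0.0333, and 0.155 for rho), with r = 0.633 without 2 libraries. Igfbp7 had r = 0.692 and rho = 0.755 (permutation test, adjusted p = 0.0509, and 0.043 for rho, which passed), with r = 0.479 without 2 libraries. The part of vascular and astrocyte RNA in the genotype values of Igfbp2 and Igfbp7 was not tested.

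**Figure D3:**
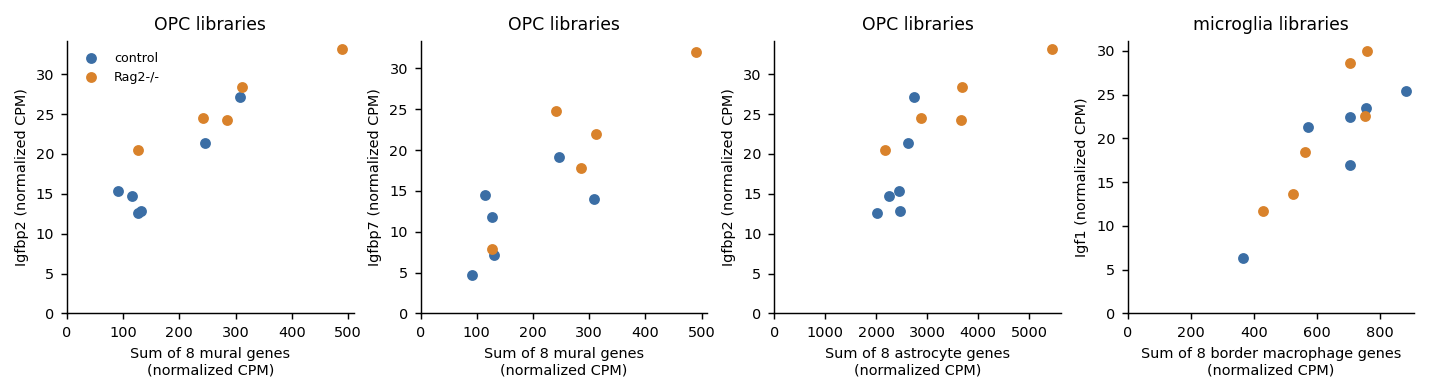
Normalized CPM of a member (vertical axis) against the summed normalized CPM of 8 marker genes of another cell type (horizontal axis), where each point is a library, for Igfbp2 and Igfbp7 against mural genes and Igfbp2 against astrocyte genes in 11 OPC libraries, and Igf1 against border macrophage genes in 12 microglia libraries. Pearson's r of the log2 values was 0.899, 0.850, 0.804 and 0.901 from left to right, and the Rag2-/- OPC library of pair 1 was highest on both axes of each OPC plot.

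In astrocytes the smallest p was that of Igf1r, with 74.0, 49.2, 84.9, 77.4, 55.5 and 70.6 CPM in controls and 131, 56.0, 88.3, 78.2, 63.1 and 64.6 CPM in Rag2-/- libraries of pairs 1 to 6, a difference of 0.31 (SE 0.13, 95% interval 0.03 to 0.59, adjusted p = 1.00 in edgeR's test). The Rag2-/- library was the higher in the 5 pairs of equal sex and the lower in pair 6, where the control was male and the Rag2-/- mouse female. Without the Rag2-/- library of pair 1, at 131 CPM, the difference was 0.15. In oligodendrocytes the smallest p was that of Igfbp7, with 0.872, 1.03, 4.93 and 25.3 CPM in controls and 1.93, 3.96, 1.57 and 0.280 CPM in Rag2-/- libraries of pairs 1, 3, 5 and 6 (difference -1.97, SE 1.18, adjusted p = 0.998 in edgeR's test). It was -0.16 without the control library of pair 6 and 0.52 with the littermate pair as a replicate block. In microglia it was again Igfbp7, with 0.600 to 5.82 CPM (median 2.28) in controls and 0.688 to 3.31 CPM (median 1.47) in Rag2-/- libraries (difference -0.81, SE 0.52, adjusted p = 0.999 in edgeR's test).

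**Figure D4:**
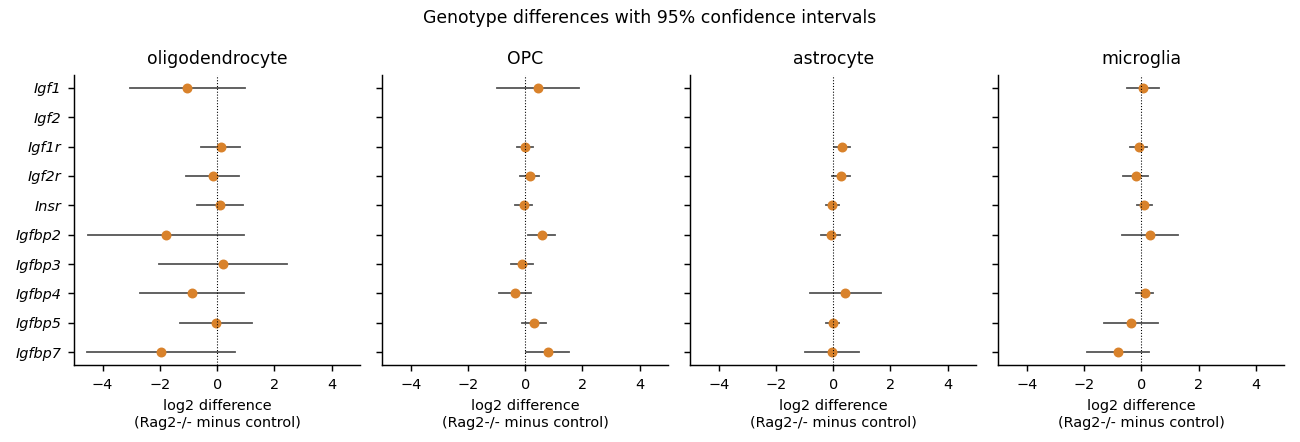
Log2 difference between Rag2-/- and control libraries (horizontal axis, Rag2-/- minus control) of each member in each cell type. Points are edgeR estimates with sex in the model and lines are 95% confidence intervals. Genes without a point were removed by the minimum-count filter in that cell type. No member was called in any cell type, and the intervals were widest in oligodendrocytes.

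A test of whether the genotype difference of a member was unequal between cell types called 0 of 9 members (0.248% of 21368 genes tested were called). Igfbp2 (adjusted p = 0.27 in edgeR's test) and Igfbp7 (adjusted p = 0.4 in edgeR's test) had the smallest p and were the 2 members under 0.05 before adjustment (11.2% of all genes tested). Both had higher means in Rag2-/- OPC libraries and lower means in Rag2-/- oligodendrocyte libraries, where Igfbp2 had 2.74, 3.10, 3.79 and 9.50 CPM in controls and 0.429, 1.66, 0.157 and 4.62 CPM in Rag2-/- libraries of pairs 1, 3, 5 and 6, lower in all 4 pairs. The mural list had the same directions, from 170 CPM in control to 291 CPM in Rag2-/- OPC libraries, and from 74.98 ± 71.9 CPM in control to 35.2 ± 23.9 CPM in Rag2-/- oligodendrocyte libraries. In oligodendrocytes it summed to 15.6, 22.6, 92.3 and 169 CPM in controls and 16.8, 12.4, 53.9 and 57.7 CPM in Rag2-/- libraries of the same pairs. The control library of pair 6 was the highest for the list, for Igfbp2 and for Igfbp7. It was also the highest for the endothelial, fibroblast, astrocyte and neuron lists. Over the oligodendrocyte libraries, r with the mural list was 0.497 for Igfbp2 and 0.535 for Igfbp7 (permutation test, adjusted p = 0.532 and 0.527). With the fibroblast list r was 0.750 for Igfbp7 (permutation test, adjusted p = 0.339). The part of RNA of other cell types in these values was not tested. Igf1 in oligodendrocytes had 5.98, 8.40, 5.12 and 11.5 CPM in controls and 3.43, 3.32, 0.629 and 7.42 CPM in Rag2-/- libraries, lower in the Rag2-/- library of all 4 pairs, with overlapping groups and a difference of -1.05 (SE 0.92, adjusted p = 0.998 in edgeR's test). Its counts there were 4 to 75 per library.

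Males and females were compared in the same fits. No member was called, where 0.0362%, 0.0296%, 0.0407% and 0.0467% of the genes tested were called in oligodendrocytes, OPCs, astrocytes and microglia, but 1, 0, 3 and 1 members had an edgeR p under 0.05 before adjustment (8.23%, 4.3%, 6.73% and 3.92% of all genes tested). Igf1r in astrocytes was 49.2, 55.5, 56.0, 63.1 and 64.6 CPM in 5 females and 70.6 to 131 CPM (median 78.2) in 7 males. No male library overlapped the females, but the share of all genes tested that separate the sexes in this way was not counted. The difference, male minus female, was 0.62 (SE 0.14, adjusted p = 0.301 in edgeR's test). The adjusted p was 0.012 without the filter on low counts and 0.021 in DESeq2, both past the threshold, and it ranged from 0.012 to 0.843 over all alternatives. Igf1r in oligodendrocytes also had higher values in 5 males (65.6 to 117 CPM) than in 3 females (37.2, 49.3 and 62.4 CPM), with a difference of 0.80 (SE 0.33, adjusted p = 0.546 in edgeR's test). The share of genes so separated was not counted there either. In microglia, females (57.2 to 80.1 CPM) and males (52.9 to 90.7 CPM) overlapped.

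Igfbp2 in astrocytes went the other way. It was 99.5, 105, 116, 140 and 159 CPM in females and 58.7 to 104.1 CPM (median 81.5) in males, a difference of -0.67 (SE 0.16, adjusted p = 0.461 in edgeR's test). Over all alternatives the adjusted p ranged from 0.00102, with no filter, to 0.922. A single male library, the control of pair 6 at 104.1 CPM, lay above the lowest female library. Igfbp7 in astrocytes was higher in males by 1.14 (SE 0.48, adjusted p = 0.715 in edgeR's test), at 2.52 ± 1.12 against 1.13 ± 0.428 CPM. Igfbp4 in microglia was 30.8, 39.8, 41.0, 45.6 and 48.8 CPM in females and 22.4 to 38.5 CPM (median 27.3) in males, a difference of -0.54 (SE 0.14, adjusted p = 0.811 in edgeR's test), with overlap between the groups. In OPCs the smallest p was that of Insr (-0.23, SE 0.14, adjusted p = 0.999 in edgeR's test). Whether these differences were unequal between cell types was not tested.

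**Figure D5:**
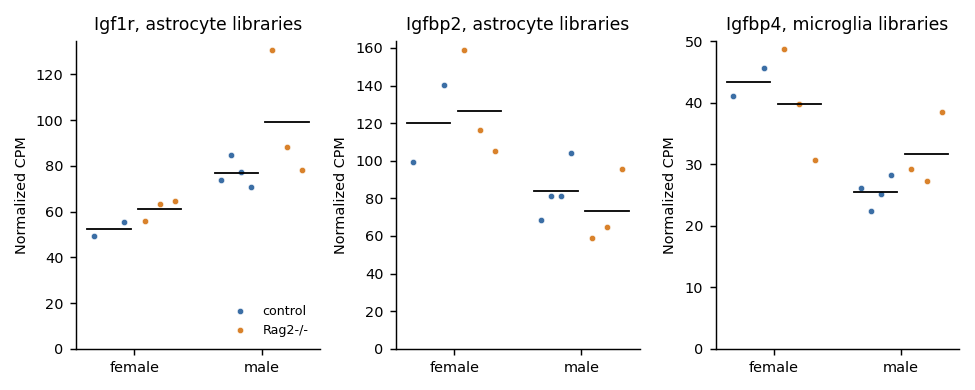
Normalized CPM of Igf1r and Igfbp2 in astrocyte libraries and Igfbp4 in microglia libraries of 5 female and 7 male mice, by genotype, where each point is a library and each bar the mean of a group. All male libraries lay above all female libraries for Igf1r, and the groups overlapped for Igfbp2 and Igfbp4. The share of all genes with such a separation was not counted.

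Beside the members, 51 other genes of the pathway were followed: 14 partners outside the cell, 32 signalling genes inside it, and 5 RNA-binding proteins and imprinted neighbours. By genotype 0 of the 38, 41, 35 and 33 genes tested in oligodendrocytes, OPCs, astrocytes and microglia were called (0%, 0.00592%, 0.00679% and 0.00667% of all genes tested), and by sex also 0 (0.0362%, 0.0296%, 0.0407% and 0.0467%). Before adjustment, 4, 2, 0 and 1 had an edgeR p under 0.05 by genotype, a mark that 3.38%, 4.02%, 2.87% and 2.91% of all genes tested passed. The 4 in oligodendrocytes, which were named after their values were seen, had higher estimates in Rag2-/- libraries: Irs1 by 1.15 (SE 0.49), Rheb by 1.00 (SE 0.45), Tsc2 by 0.76 (SE 0.32) and Grb14 by 0.68 (SE 0.29), each with an adjusted p = 0.998 in edgeR's test. Over the list, the median difference by genotype was 0.13, -0.01, 0.03 and 0.04, where that over all genes tested was 0.00, -0.01, 0.00 and -0.01. Between cell types, 41 were tested. The fewest, 16, were called between OPCs and oligodendrocytes (40.7% of all genes tested), and 23 each between astrocytes and oligodendrocytes (49.7%) and astrocytes and OPCs (42.6%). Microglia differed from oligodendrocytes in 35 (15 higher and 20 lower, background 68%), from OPCs in 32 (background 69.5%) and from astrocytes in 32 (14 higher and 18 lower, background 70%). Htra1, a secreted serine protease, had 638 ± 96.2 CPM in astrocytes and 2.80 ± 1.15 in microglia (difference -7.81, SE 0.25, adjusted p = 7.55e-28). Ghr, the receptor for growth hormone, had 49.8 ± 8.39 CPM in astrocytes and 0.478 ± 0.550 in microglia (-6.80, SE 0.45, adjusted p = 3.67e-17). Grb14, an adaptor that holds back insulin receptor signalling, had 93.3 ± 31.1 CPM in oligodendrocytes and 0.913 ± 1.04 in microglia (-6.66, SE 0.32, adjusted p = 6.34e-22). Irs1, the docking protein of activated insulin and IGF1 receptors, had 25.2 to 33.1 CPM on average in the other cell types and 1.20 ± 0.924 in microglia. Igf2bp2, an RNA-binding protein, was the reverse, with 26.3 ± 3.34 CPM in microglia and 0.297 to 2.50 CPM on average elsewhere. The insulin genes Ins1 and Ins2 had 0 counts in all 43 libraries.

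The genes whose pattern over the 43 libraries was most like a member's were found by Pearson's r of log2(normalized CPM + 0.5), as a description over libraries that share a cell type. Igfbp5 was nearest to Slc1a2, the main glutamate transporter of astrocytes (r = 0.974), and Igfbp2 to Mfge8 (0.968) and F3 (0.967). Igfbp4 was nearest to Marcksl1 (0.943), Igfbp3 to Stk32a (0.941), Insr to Npas3 (0.935) and Igf1 to Fyb1 (0.902), Atp2b1 (0.899) and Stab1 (0.892), a receptor of macrophages and endothelium. Within microglia libraries alone, r of Igf1 with Stab1 was 0.670 and with Atp2b1 was -0.03. For Igf2r, Igfbp7, Igf2 and Igf1r the nearest genes reached 0.795, 0.826, 0.728 and 0.547, and no gene ran close to Igf1r.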

How the data were processed

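RNA was measured in immunopanned cells as described by the authors, who amplified cDNA with the Ovation RNAseq System, sequenced read pairs on a NovaSeq with libraries of a cell type on a shared lane, aligned them with STAR 2.7.8a to GRCm39 and counted them with HTSeq, with a strand setting not given in the sources used here. The deposited values were whole-number counts of read pairs per gene. Rows that name no gene held 33.5% to 52.0% of a library and were left out. Lane and cell type cannot be told apart, and amplification adds spread to low counts.

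Groups came from the labels. Genotype and sex were tested in each cell type with edgeR 4.0.16 in R 4.3.3 (quasi-likelihood test, model of sex and genotype, filterByExpr with a minimum count of 10). Cell types and the equality of genotype differences were tested in a joint fit of 43 libraries in 8 groups with sex. DESeq2 1.42.0 was an alternative, beside other size factors, no filter, blocks and leaving out each library or mouse. The test was checked on simulated counts. Exact permutation tests (8 libraries) or 100000 resamples (11 or 12) were used for correlations of log2(CPM + 0.5), without regard to genotype, sex or pair. Coordinates and exonic lengths came from GENCODE M39, which held 54749 of 55416 identifiers.

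The members, gene lists and rule for named genes were chosen with earlier results of these data known. By that rule, a member's difference was printed for neighbours in the order of cell types, and by genotype or sex where its unadjusted p was under 0.05 or the smallest. Igf1 in oligodendrocytes, Igfbp2 in oligodendrocytes and further values by sex were added after values were seen. Of the other pathway genes, those with the largest differences between cell types were named. Same-numbered mice were littermates by the study's methods. The mean correlation between libraries of a pair, after centring each group, was 0.0687 to 0.100, against -0.0295 to -0.0139 for other numbers. No 2 libraries of a group agreed within counting error (smallest chi-square 7.45 per gene over 97 pairs).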

Additional observations from a re-analysis of the deposited data

Results flagged for a closer look

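Of 76 groups of 4 to 6 libraries examined for a member, 7 had a library far from the rest of its group by Dixon's ratio of gap to range. That ratio picks about 1 in 20 groups of normally distributed values by chance, a rate not measured for these CPM, some of which rest on few counts. Igfbp7 in the control oligodendrocyte library of pair 6 had 25.3 CPM (165 counts), with the nearest other control at 4.93 CPM, and Igfbp2 in the same library had 9.50 CPM (62 counts) against 3.79 CPM. Igf2r in the control microglia library of pair 3 had 27.8 CPM (372 counts), with the nearest at 17.9 CPM, in the library with the lowest Igf1 of its cell type. Insr in the Rag2-/- astrocyte library of pair 2 was low, at 89.3 CPM (815 counts) against 110 CPM. Counts were small in the other 3: Igfbp3 had 4.13 CPM (34 counts) in the control astrocyte library of pair 1 against 1.19 CPM and 1.21 CPM (15 counts) in the Rag2-/- microglia library of pair 3 against 0.345 CPM, and Igf2 had 0.688 CPM (7 counts) in the Rag2-/- microglia library of pair 1 against 0.157 CPM. The causes were not tested.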

How the results depend on the processing

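Leaving out any library or mouse moved no count of called members by more than 1.5 times in 170 of 170 fits, and 79 of 83 other alternatives did likewise. Called members rose from 0 to 2 by sex in astrocytes without the filter on low counts (Igf1r and Igfbp2) and to 1 in DESeq2 (Igf1r), and from 0 to 2 for unequal genotype differences without the filter (Igfbp2 and Igfbp7), while 0 of 99 vascular relations passed with Spearman's rho against 6 with Pearson's r. With the littermate pair as a replicate block 0 members were called by genotype in any cell type, and the Igfbp7 difference in oligodendrocytes turned from -1.97 to 0.52. The mouse as a replicate block moved the count between oligodendrocytes and OPCs from 4 to 3 (Igf1 lost) and ended no other call of a member. In control libraries alone, 3 small uncalled differences reversed: Igf1r was 0.10 for oligodendrocytes minus astrocytes and -0.15 for astrocytes minus microglia, and Igf2r was -0.15 for astrocytes minus oligodendrocytes. There Igf1 in microglia minus oligodendrocytes was 1.31 (adjusted p = 0.0641 in edgeR's test).

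Leaving out 1 library or mouse reversed 8 of 445 values of single genes, all uncalled: Igf1r ranged from -0.18 to 0.078 for oligodendrocytes minus astrocytes and -0.013 to 0.10 for astrocytes minus microglia, Igf2r from -0.050 to 0.27 for astrocytes minus oligodendrocytes and -0.15 to 0.14 for oligodendrocytes minus OPCs, Igfbp5 from -0.17 to 0.37 for oligodendrocytes minus OPCs, and Igfbp7 from -0.10 to 0.34 for microglia minus astrocytes. Igf1 in oligodendrocytes minus OPCs ranged from 0.66 to 1.39 and lost its call without the control mouse of pair 2, 4 or 6 or the Rag2-/- mouse of pair 2, 3, 4 or 6. Insr in astrocytes minus OPCs became called without 3 mice, with DESeq2 size factors (0.33) and without mitochondrially encoded genes (0.33). These scalings shifted the median of 50 genes by 0.11 and 0.10 for that contrast. Insr and Igfbp4 in OPCs minus oligodendrocytes became called without either mouse of pair 6, and Igfbp3 in astrocytes minus microglia without the control of pair 5 and without the filter. Depth limits Igf2, Igfbp3 in microglia and astrocytes and Igf1 in astrocytes, with median counts of 4, 5 and 6.5 for the last 3. The causes were not tested.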
